A study of Homo sapiens with 12 samples.

Results

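The glycolytic enzymes, glucose and lactate carriers, and oxygen-sensing genes of 22Rv1, a human prostate cancer cell line, were examined at the level of mRNA after depletion of CENPA, the histone H3 variant of the centromere. The members were 39 genes chosen by symbol from general knowledge of glycolysis and of the response to low oxygen, with earlier results of these data known. Of these, 39 of 39 were present among the 14828 genes in the table and passed the filter on low values that left 14624 genes. By role they comprise 15 enzymes of the glycolytic chain from hexokinase to pyruvate kinase, 2 lactate dehydrogenase subunits, 3 carriers, 2 pyruvate dehydrogenase kinases, 3 enzymes that make or remove fructose 2,6-bisphosphate, 6 hypoxia-inducible factor (HIF) subunits or oxygen-sensing proteins and 8 other HIF targets.

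The cells carried a doxycycline-inducible lentiviral vector (pTRIPZ, a Tet-On system) for a nontargeting short hairpin RNA (shNT) or for 1 of 2 hairpins directed at CENPA (shCENPA1 and shCENPA2), were kept under puromycin, and all 3 groups received doxycycline at 2 µg/ml for 72 h. Stranded libraries of mRNA were sequenced from 2 libraries per hairpin, each in lanes 7 and 8, which gives 12 runs and 6 libraries. Nothing in the labels says whether the libraries of a hairpin came from separate cultures, so the p-values measure only the spread between these libraries, which may be technical. Values are log2 RPKM (reads scaled to gene length in kilobases and to library size), with the 2 lanes of a library averaged and n = 2 libraries per group.

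Glycolysis converts glucose to pyruvate: hexokinase and phosphofructokinase invest phosphate, the later enzymes recover it as ATP, and lactate dehydrogenase turns pyruvate into lactate while regenerating NAD+. Under low oxygen the prolyl hydroxylases encoded by the EGLN genes slow down, the HIF alpha subunits escape the ubiquitin ligase that contains VHL, pair with ARNT and raise many glycolytic genes. HIF alpha is controlled largely at the protein level, so mRNA alone does not report its activity. The normal prostate epithelium accumulates citrate and is known for a metabolism unlike that of most tissues.

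CENPA itself checked the labels. In log2 RPKM it measured 2.46 and 2.18 for shNT, then 0.50 and 0.58 for shCENPA1 and -0.47 and -0.41 for shCENPA2. This is a change of -70.9% and -85.3% relative to shNT (log2 fold change -1.78 and -2.76, adjusted p = 0.000287 and 1.13e-05, limma). The level with shCENPA2 was below that with shCENPA1 (log2 difference -0.98, adjusted p = 0.0209), a call that 5 of 19 alternatives lost, with adjusted p up to 0.212: 1 added to RPKM (log2 difference -0.50), voom on recovered reads, and the fits without shCENPA1 library 1, shCENPA1 library 2 or shCENPA2 library 2.

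Most of the 39 genes changed little. With shCENPA1, 1 member passed an adjusted p of 0.05 (limma, Benjamini-Hochberg over all genes tested), the neuronal enolase ENO2, which fell, while 0 rose (1 by limma's voom on reads recovered from the values, PFKM). Over all 14624 genes 7.14% passed with shCENPA1, 2.69% higher and 4.45% lower. With shCENPA2, 9 members passed, against 18.5% of all genes (8.05% higher and 10.5% lower): GPI, PFKM, ALDOC, EPAS1 and VEGFA rose, while HK2, ENO2, LDHA and EGLN3 fell. That is 23.1% of the members, near the share of all genes. No member (0) also had a log2 fold change larger than 1 in size, which 2.65% of all genes passed with shCENPA1 and 6.13% with shCENPA2. At an unadjusted p under 0.05 there were 11 members with shCENPA1 and 14 with shCENPA2, and 3223 and 4718 of all 14624 genes. The median log2 fold change of the members was 0.05 with shCENPA1 and 0.05 with shCENPA2, against 0.003 and 0.0122 over all genes, and the median absolute change was 0.14 and 0.19, against 0.17 and 0.21 over all genes. Both comparisons share the shNT libraries, so the values with the 2 hairpins are given side by side and are not independent. In these bulk samples, fewer cells that express a gene and less of its RNA per cell cannot be told apart.

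**Figure D1:**
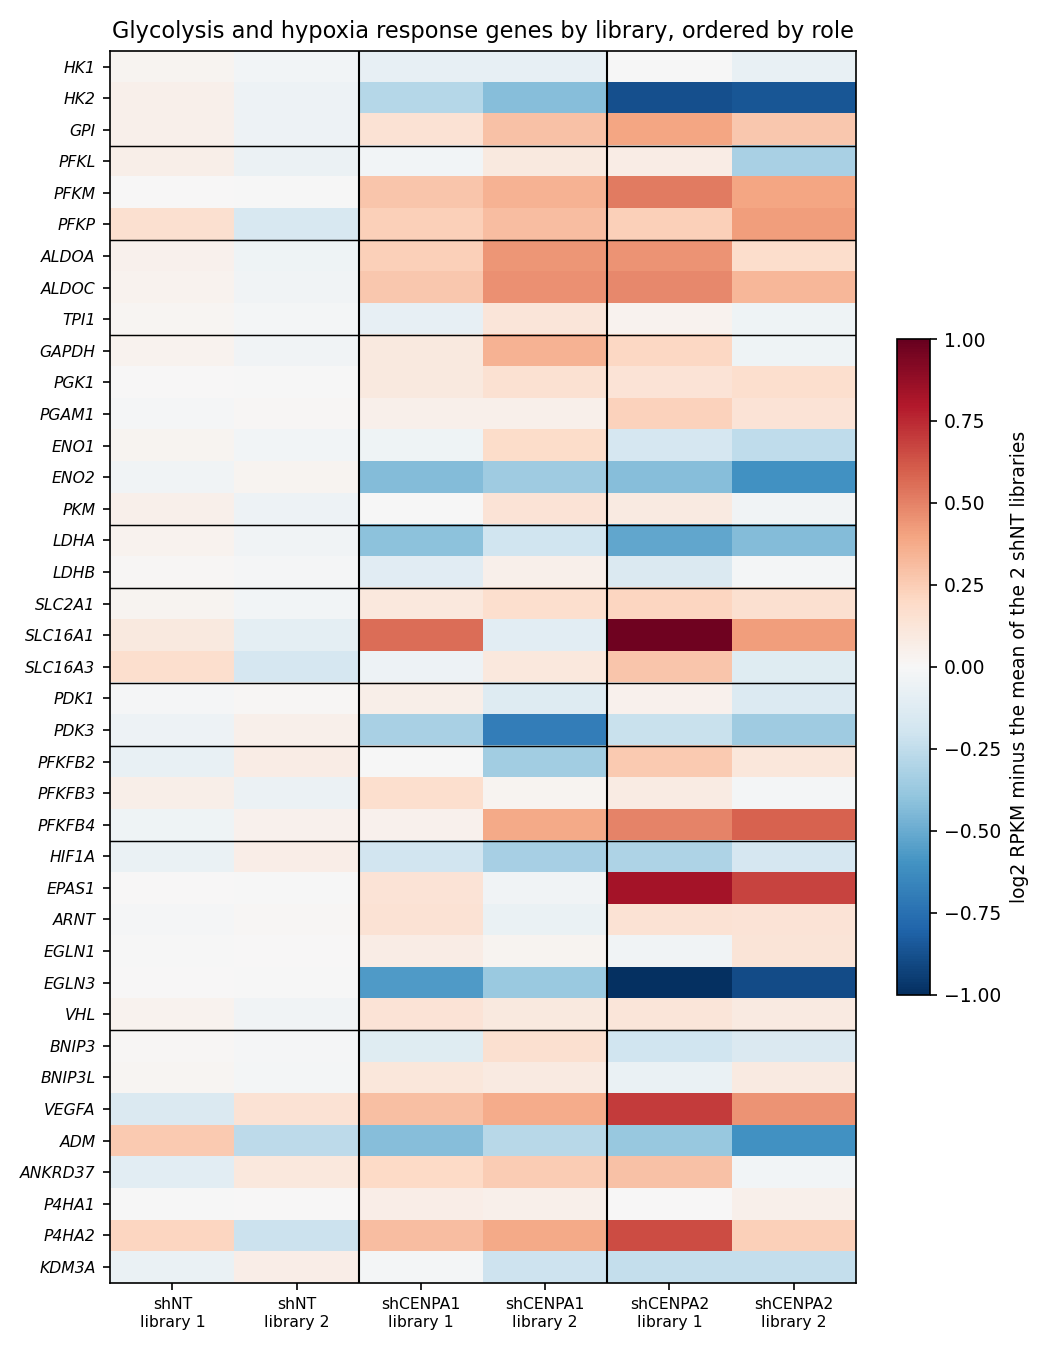
Each row is a gene, ordered by role with black lines between roles, and each column a library; colour gives the log2 RPKM of the library minus the mean of the 2 shNT libraries, from -1 to 1. HK2, ENO2, LDHA and EGLN3 are lower, and PFKM and ALDOC higher, in both shCENPA2 libraries, while most rows stay near the shNT level.

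In shNT cells the members covered a wide range of levels per length. GAPDH was at 9.97 ± 0.05 log2 RPKM (SD, n = 2; 1004 RPKM) and TPI1 followed at 8.54 ± 0.03, then LDHB, PKM, ENO1, ALDOA, LDHA, PGK1 and ENO2 between 7.77 and 5.77. HIF1A, at 5.62 ± 0.10, was the most abundant gene of the oxygen-sensing group. The lowest were ANKRD37 (-0.41 ± 0.15), the pyruvate dehydrogenase kinase PDK1 (-0.78 ± 0.02) and the monocarboxylate carrier SLC16A1 (-1.34 ± 0.13). The length used for PDK1 in the deposited values was 15101 bases, the second longest of the members, and a longer length lowers a value per length. The members took 1.01% to 1.13% of the reads on genes in each library, and the least sequenced member in a library, ANKRD37, had 178 reads.

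The hexokinases trap glucose in the cell as glucose 6-phosphate. HK2, the isozyme that is raised in many cancers and sits on the mitochondrial outer membrane, was at 3.22 and 3.12 log2 RPKM with shNT, 2.89 and 2.75 with shCENPA1, and 2.29 and 2.31 with shCENPA2. The 3 groups did not overlap, and both shCENPA2 libraries were lowest. HK2 fell by 0.87 ± 0.11 on the log2 scale with shCENPA2 (SE; adjusted p = 0.000532), a change of -45.3%. With shCENPA1 the value was -0.35 ± 0.11 and did not pass (adjusted p = 0.0851), and the difference between the hairpins was -0.52 (95% interval -0.76 to -0.28, adjusted p = 0.0535). HK1, the constitutive isozyme, lay between 4.65 and 4.75 in all 6 libraries. Its log2 fold changes of -0.08 (95% interval -0.27 to 0.11) with shCENPA1 and -0.04 (-0.22 to 0.15) with shCENPA2 did not pass the test. Even so, the HK1 libraries of shCENPA1 did not overlap those of shNT. The same held for EGLN1 (0.05 with shCENPA1) and P4HA1 (0.06). Separation of 2 libraries from 2 is thus also found where the change is small and not called.

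GPI, which converts glucose 6-phosphate to fructose 6-phosphate, was at 4.90 and 4.80 log2 RPKM with shNT, 4.99 and 5.14 with shCENPA1, and 5.24 and 5.12 with shCENPA2. Both hairpins lay above shNT and overlapped each other. GPI rose by 0.33 ± 0.10 on the log2 scale with shCENPA2 (adjusted p = 0.0396), and its value with shCENPA1 was 0.22 (95% interval 0.00 to 0.43, adjusted p = 0.22).

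Phosphofructokinase commits sugar to glycolysis as a tetramer of 3 kinds of subunit. The muscle-type subunit PFKM, which was the most abundant of the 3 here, was at 4.62 and 4.61 log2 RPKM with shNT, 4.89 and 4.97 with shCENPA1, and 5.14 and 5.01 with shCENPA2. All 4 knockdown libraries lay above both shNT libraries. PFKM rose by 0.46 ± 0.09 with shCENPA2 (log2, adjusted p = 0.00643), a change of 37.2%, and the value with shCENPA1 was 0.31 ± 0.09 (adjusted p = 0.0655). The liver-type PFKL (log2 fold change 0.04 and -0.12 with shCENPA1 and shCENPA2) and the platelet-type PFKP (0.27 and 0.33) did not pass with either hairpin.

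Aldolase splits the 6-carbon sugar into a pair of triose phosphates. ALDOC, the brain-type isozyme, was at 4.32 and 4.25 log2 RPKM with shNT, 4.56 and 4.74 with shCENPA1, and 4.76 and 4.62 with shCENPA2, so that the knockdown libraries all lay above shNT. ALDOC rose by 0.41 ± 0.10 with shCENPA2 (log2, adjusted p = 0.0202), with a value of 0.36 ± 0.10 for shCENPA1 (adjusted p = 0.0621). ALDOA, the muscle-type and far more abundant isozyme, had log2 fold changes of 0.34 (95% interval 0.07 to 0.61, adjusted p = 0.13) and 0.31 (0.04 to 0.58, adjusted p = 0.104) with shCENPA1 and shCENPA2, and did not pass. For TPI1, which interconverts the triose phosphates, the intervals were -0.25 to 0.28 and -0.27 to 0.26.

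In the payoff phase, ENO2 was the only 1 of the 39 members called with both hairpins. Of all 14624 genes tested, 951 were called with both in the same direction. ENO2 encodes the neuron-specific enolase, a marker of neuroendocrine cells that are also found in prostate tumours. Its log2 RPKM was 5.74 and 5.80 with shNT, 5.34 and 5.42 with shCENPA1, and 5.35 and 5.17 with shCENPA2. Every knockdown library lay below both shNT libraries, and the hairpins overlapped. ENO2 fell by 0.39 ± 0.09 with shCENPA1 (log2, adjusted p = 0.0356) and by 0.52 ± 0.09 with shCENPA2 (adjusted p = 0.00469), changes of -23.8% and -30.1%. The shCENPA1 call was lost without either shNT library or either shCENPA1 library (19 alternative settings in all, of which 13 kept it). ENO1, the isozyme found in most tissues, had values of 0.07 (95% interval -0.16 to 0.31) and -0.21 (-0.44 to 0.02). GAPDH, PGK1, PGAM1 and PKM did not pass with either hairpin, with log2 fold changes between 0.03 and 0.22. GAPDH, which the study used as a reference in other assays, reached 10.07 and 10.32 log2 RPKM with shCENPA1 and 10.18 and 9.93 with shCENPA2 against 10.01 and 9.93 with shNT. Its log2 fold change was 0.22 (95% interval -0.15 to 0.59) with shCENPA1 and 0.08 (-0.29 to 0.45) with shCENPA2.

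LDHA favours the reduction of pyruvate to lactate and LDHB the reverse. LDHA was at 6.35 and 6.28 log2 RPKM with shNT, 5.91 and 6.12 with shCENPA1, and 5.80 and 5.88 with shCENPA2, and the 3 groups did not overlap. LDHA fell by 0.48 ± 0.10 with shCENPA2 (log2, adjusted p = 0.00907), a change of -28.2%, with a value of -0.30 ± 0.10 for shCENPA1 (adjusted p = 0.107). LDHB, the more abundant subunit in every library, did not pass (-0.03, 95% interval -0.27 to 0.21, and -0.08, -0.32 to 0.16).

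**Figure D2:**
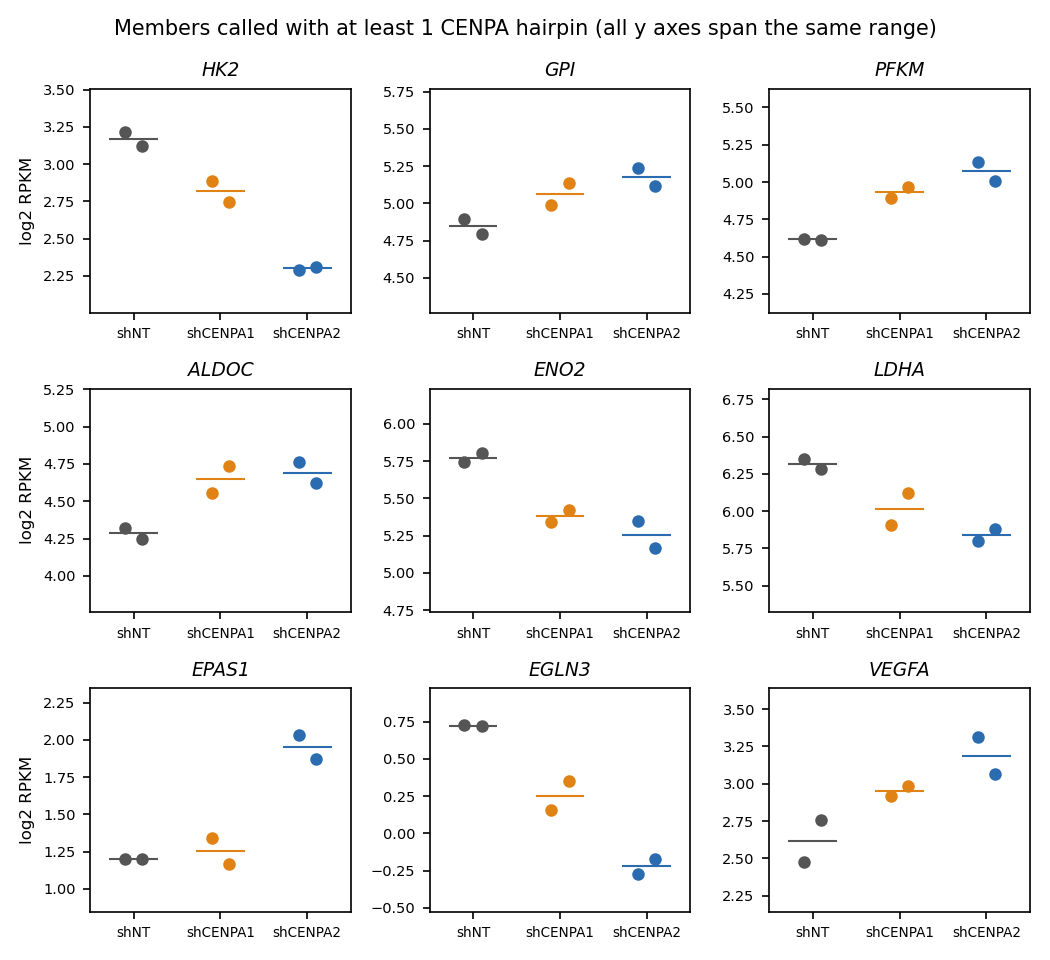
Each panel gives a member called with at least 1 CENPA hairpin, with log2 RPKM on the vertical axis; points are libraries, lines the mean of the 2 libraries, and every axis spans the same range. HK2 and EGLN3 step down from shNT through shCENPA1 to shCENPA2, and EPAS1 stands higher only in the shCENPA2 libraries among the 6.

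The balance of isozymes was set out as the share of each in the summed RPKM of its family, a calculation chosen after the values were seen and given as a description. HK2 made up 25.7% and 25.1% of HK1 and HK2 together with shNT, 22.8% and 21.1% with shCENPA1, and 15.6% and 16.5% with shCENPA2. LDHA made up 27.1% and 26.5% of the lactate dehydrogenase subunits with shNT, 22.9% and 23.5% with shCENPA1, and 22.0% and 21.4% with shCENPA2. ENO2 made up 32.0% and 33.7% of the enolases with shNT, 27.2% and 25.2% with shCENPA1, and 29.0% and 27.8% with shCENPA2. In these 3 families the knockdown libraries all had a smaller share of the isozyme than both shNT libraries. PFKM and, by less, ALDOC went the other way. PFKM moved from 55.2% and 57.6% of the phosphofructokinase subunits with shNT to 60.9% and 60.3% with shCENPA1 and 63.4% and 66.4% with shCENPA2. ALDOC made up 17.0% and 17.2% of the aldolases with shNT, 17.4% and 17.2% with shCENPA1, and 17.4% and 18.7% with shCENPA2, so its 4 knockdown libraries lay above shNT only narrowly. With 2 libraries against 2, a two-sided exact permutation test of a single share cannot go below p = 0.333, so none was run.

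**Figure D3:**
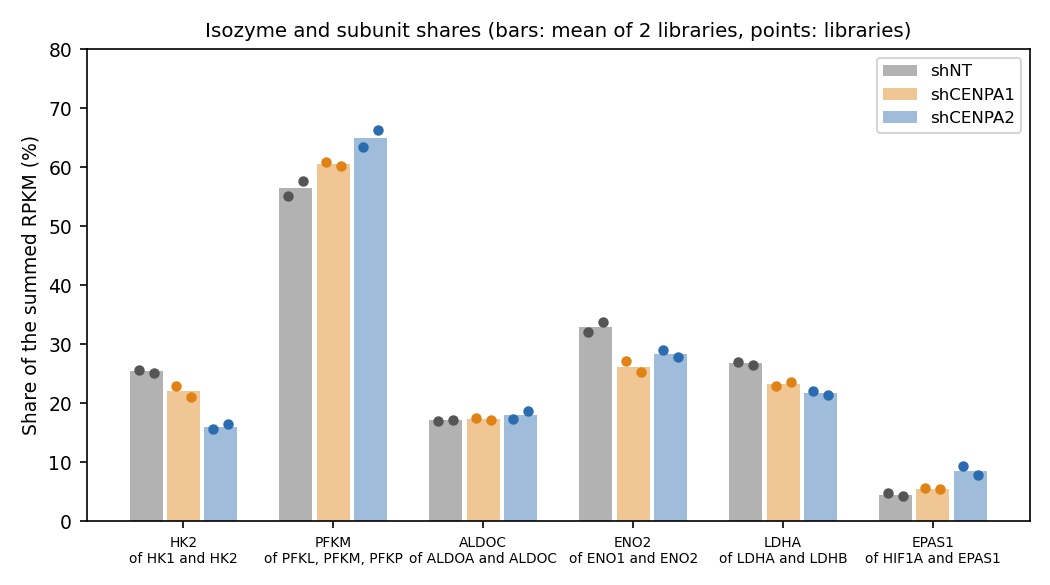
Bars give the mean share (percent, from 0) of the named gene in the summed RPKM of its family over 2 libraries per hairpin, and points the libraries. The shares of HK2, ENO2 and LDHA are smaller in both knockdowns than with shNT, that of PFKM is larger, and that of ALDOC, between 17.0% and 18.7% in all libraries, only slightly so.

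The carriers and the regulators of flux did not pass with either hairpin. SLC2A1, the main glucose carrier GLUT1, had log2 fold changes of 0.14 (95% interval -0.08 to 0.35) and 0.19 (-0.03 to 0.40). SLC16A3, a lactate exporter, had 0.02 (-0.44 to 0.49) and 0.08 (-0.38 to 0.54). SLC16A1, a monocarboxylate carrier at 202 to 455 reads per library, had the widest interval of all, 0.02 to 1.37 around 0.69 with shCENPA2 (adjusted p = 0.145), and its libraries of one hairpin differed by more than 0.5 log2 units in both knockdowns. For PDK3, a kinase that shuts the pyruvate dehydrogenase complex, the values were -0.51 (-0.87 to -0.14, adjusted p = 0.0996) and -0.29 (-0.65 to 0.07). PDK1, a HIF target with the same role, had intervals of -0.52 to 0.45 and -0.53 to 0.44. Of the PFKFB enzymes, which set the level of the phosphofructokinase activator fructose 2,6-bisphosphate, PFKFB4 had values of 0.21 (-0.19 to 0.62) and 0.54 (0.14 to 0.95, adjusted p = 0.0651), PFKFB2 had -0.17 and 0.19, and PFKFB3 had 0.10 and 0.03.

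Among the oxygen-sensing genes, EPAS1 was the member that differed between the hairpins. It encodes HIF-2 alpha, the alpha subunit with the more restricted tissue distribution. EPAS1 was at 1.20 and 1.20 log2 RPKM with shNT, 1.34 and 1.16 with shCENPA1, and 2.03 and 1.87 with shCENPA2. The shCENPA1 libraries lay on both sides of shNT, and both shCENPA2 libraries lay above all others. EPAS1 rose by 0.75 ± 0.14 with shCENPA2 (log2, adjusted p = 0.00509), a change of 68.2%, against 0.05 (95% interval -0.26 to 0.36, adjusted p = 0.867) with shCENPA1. The difference between the hairpins was 0.70 (0.39 to 1.01, adjusted p = 0.0448). It was the only one of the 39 members to pass between the hairpins, where 1.42% of all genes passed, 0.732% with a log2 difference beyond 1 as well. Leaving out any of the 6 libraries, controls included, ended this call, with adjusted p rising to as much as 0.304 over 19 settings, of which 8 kept it.

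EGLN3, a prolyl hydroxylase that marks HIF alpha for destruction and is itself a HIF target, was at 0.72 and 0.72 log2 RPKM with shNT, 0.16 and 0.35 with shCENPA1, and -0.27 and -0.17 with shCENPA2. The 3 groups did not overlap. EGLN3 fell by 0.95 ± 0.17 with shCENPA2 (log2, adjusted p = 0.00478), a change of -48.1%, and its value with shCENPA1 was -0.47 (95% interval -0.86 to -0.08, adjusted p = 0.146). With 1 added to RPKM the shCENPA2 value of this low gene was -0.51, still called, and that of HK2 -0.76. HIF1A, the broadly expressed alpha subunit, had values of -0.26 (-0.49 to -0.04, adjusted p = 0.151) and -0.24 (-0.46 to -0.02, adjusted p = 0.125) and did not pass. HIF1A was 95.3% and 95.7% of the summed RPKM of HIF1A and EPAS1 with shNT, 94.4% and 94.6% with shCENPA1, and 90.7% and 92.3% with shCENPA2. ARNT, EGLN1 and VHL did not pass, with log2 fold changes from 0.04 to 0.14 and intervals that stayed between -0.18 and 0.36.

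Of the 8 other HIF targets, 0 were called with shCENPA1 and 1 with shCENPA2. That is 12.5% of them with shCENPA2, against 18.5% of all genes. VEGFA, the angiogenic growth factor, was at 2.47 and 2.76 log2 RPKM with shNT, 2.92 and 2.98 with shCENPA1, and 3.31 and 3.06 with shCENPA2. The knockdown libraries all lay above shNT, whose own libraries differed by 0.29. VEGFA rose by 0.57 ± 0.13 with shCENPA2 (log2, adjusted p = 0.015), a change of 48.8%, with a value of 0.34 (95% interval 0.04 to 0.63, adjusted p = 0.173) for shCENPA1. BNIP3 and BNIP3L, which drive removal of mitochondria, had values between -0.17 and 0.10 over both hairpins. ADM, the vasodilator adrenomedullin, had -0.35 (-0.81 to 0.11) and -0.49 (-0.95 to -0.03), and the collagen prolyl hydroxylase P4HA2 had 0.34 (-0.15 to 0.83) and 0.45 (-0.04 to 0.94). P4HA1, the more abundant alternative subunit of the same kind of enzyme, had intervals of -0.13 to 0.24 and -0.16 to 0.21. ANKRD37 (0.23 and 0.13) and the histone demethylase KDM3A (-0.11 and -0.24) did not pass either.

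**Figure D4:**
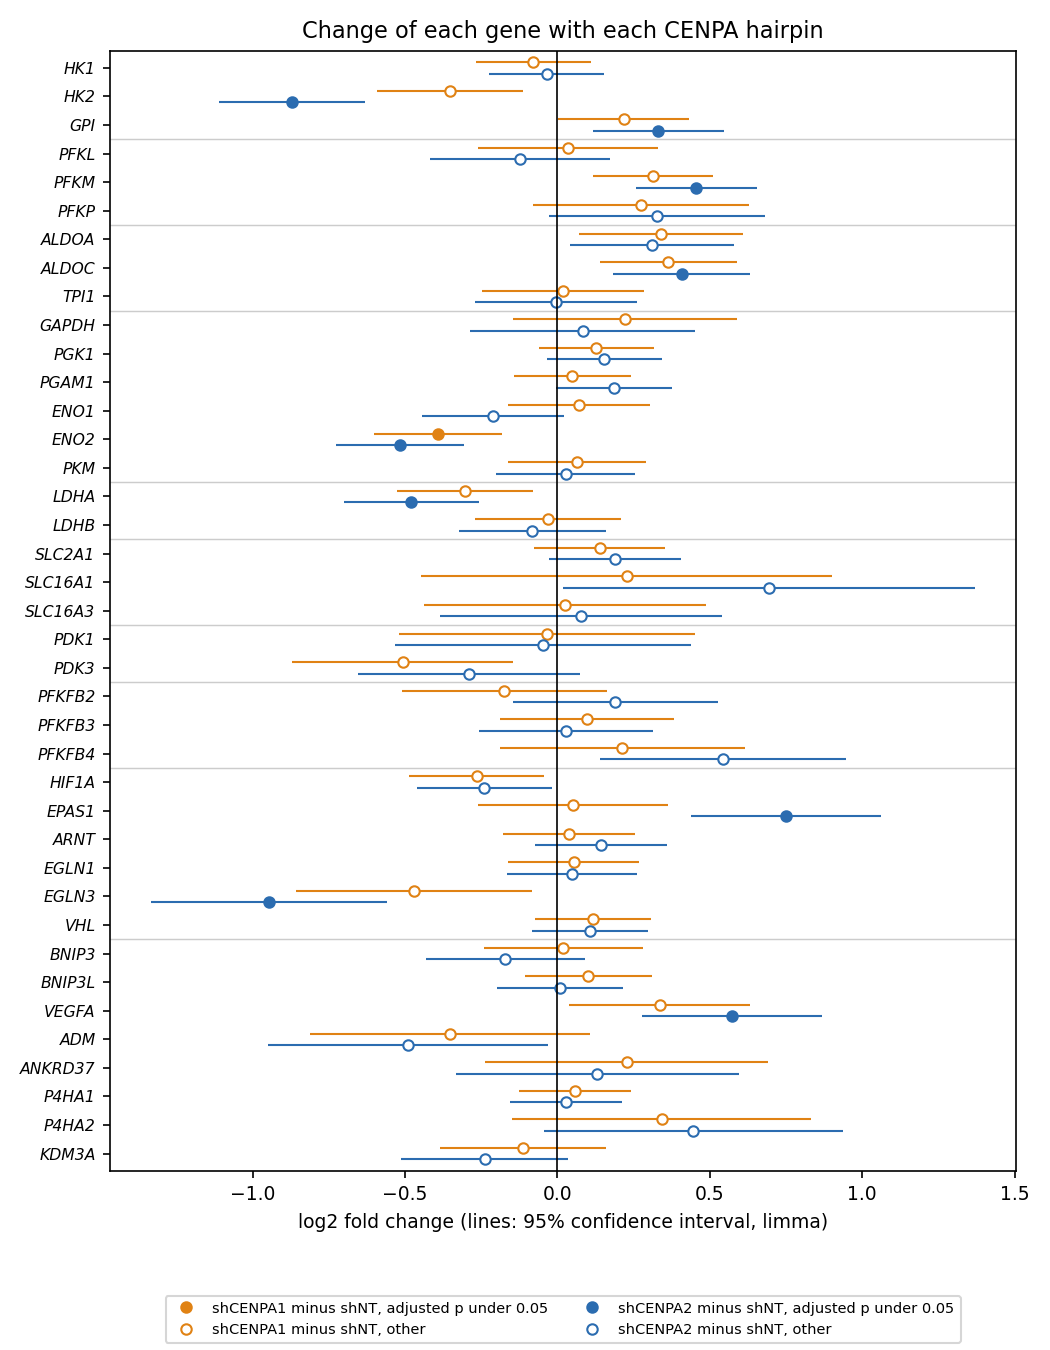
The horizontal axis gives the log2 fold change of each gene with shCENPA1 (orange) and shCENPA2 (blue) relative to shNT, with lines for the 95% confidence interval from limma and filled points for an adjusted p under 0.05. There is 1 filled orange point, ENO2, and there are 9 filled blue points, 5 to the right of 0 and 4 to the left.

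How far the members that did not pass could have moved is given by their intervals. With shCENPA1, the 95% interval stayed within 1 log2 unit of 0 for 38 of 38 such members and within 0.5 for 21. With shCENPA2, it stayed within 1 for 29 of 30, SLC16A1 being the exception, and within 0.5 for 18. Between the hairpins, 37 of 38 were within 1 and 25 within 0.5.

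Of the 9 members called with shCENPA2, HK2, EPAS1 and EGLN3 kept an adjusted p under 0.05 in all 19 alternative fits. Each of the other 6 calls was lost without at least 1 library. Without shNT library 1, 4 members passed (HK2, ENO2, EPAS1 and EGLN3), and 9.82% of all genes did in that fit. Without shNT library 2, 5 members passed (HK2, LDHA, EPAS1, EGLN3 and VEGFA), with 9.30% of all genes. Without shCENPA2 library 1, GPI, ALDOC and VEGFA were lost, and 16.5% of all genes passed.

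The glycolytic members also leaned one way between libraries of the same hairpin. Of the 25 members that are enzymes, carriers or kinases of glucose metabolism, 18 were higher in library 2 than in library 1 of shCENPA1 (median difference 0.08 log2), and 19 were lower in library 2 than in library 1 of shCENPA2 (median difference -0.12) and of shNT (-0.05). The medians over all genes were 0.025, -0.0008 and -0.0024. Of all 14624 genes, 7897 were higher in library 2 of shCENPA1. In library 2 of shCENPA2 7327 were lower, and in that of shNT 7433.

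Positions and promoter sequences were taken from the reference for the members called. On GRCh38 (GENCODE 44), HK2 lies at chr2:74834127-74893359, ENO2 at chr12:6913745-6923698, LDHA at chr11:18394560-18408425, EPAS1 at chr2:46293667-46386697, all on the plus strand, and EGLN3 at chr14:33924227-34462774 and ALDOC at chr17:28573115-28576948 on the minus strand. The HIF complex binds the hypoxia response element, whose core is ACGTG or GCGTG, and MYC and USF factors bind the E-box CACGTG, which contains ACGTG. Both strands of the 250 bases before each RefSeq start site were searched. At least 1 core was found before 27 of the 34 members that matched (79.4%), before 6645 of the 10148 genes tested here that had an entry (65.5%), and before 12945 of all 27305 genes of the RefSeq promoter table (47.4%), with no test of these differences. Members can have several windows, and by window the shares were 36 of 62 (58.1%) for members and 15172 of 35116 (43.2%) over the whole promoter table. The core was found for 7 of 8 members called and for 20 of 26 members not called, and the E-box in 12.9% of members' windows and 6.35% of all windows of that table. SLC16A1, PFKFB2, VHL, BNIP3L and VEGFA were not matched.

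The stretches shown belong to called members, on the coding strand, for which at least 190 bases of a window lay outside annotated exons, a choice made after the values were seen. They were chosen to set genes that fell (HK2, LDHA, EGLN3) beside genes that rose (EPAS1, ALDOC), and capitals mark each core or E-box. Positions count back from -1, the base before the start site, and give the first base of each match.
HK2 promoter stretch: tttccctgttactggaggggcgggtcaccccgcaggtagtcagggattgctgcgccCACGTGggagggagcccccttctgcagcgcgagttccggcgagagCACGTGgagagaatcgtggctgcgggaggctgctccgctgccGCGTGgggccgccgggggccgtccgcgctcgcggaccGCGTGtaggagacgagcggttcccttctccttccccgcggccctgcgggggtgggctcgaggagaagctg
LDHA promoter stretch: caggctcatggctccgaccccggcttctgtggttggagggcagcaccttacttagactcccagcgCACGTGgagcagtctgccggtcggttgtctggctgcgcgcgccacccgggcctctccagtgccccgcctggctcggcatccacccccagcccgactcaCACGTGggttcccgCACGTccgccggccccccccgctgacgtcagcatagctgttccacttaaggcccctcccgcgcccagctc
EGLN3 promoter stretch: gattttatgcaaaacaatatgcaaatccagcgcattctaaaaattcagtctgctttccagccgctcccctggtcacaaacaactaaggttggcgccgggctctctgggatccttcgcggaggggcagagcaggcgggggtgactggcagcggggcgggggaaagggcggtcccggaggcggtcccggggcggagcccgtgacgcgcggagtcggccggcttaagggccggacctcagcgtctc
EPAS1 promoter stretch: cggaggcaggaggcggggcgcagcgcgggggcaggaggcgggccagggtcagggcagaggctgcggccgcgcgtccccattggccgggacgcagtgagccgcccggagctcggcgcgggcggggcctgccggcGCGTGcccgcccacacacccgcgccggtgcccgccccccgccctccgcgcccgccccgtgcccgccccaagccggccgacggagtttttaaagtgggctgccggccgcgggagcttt
ALDOC promoter stretch: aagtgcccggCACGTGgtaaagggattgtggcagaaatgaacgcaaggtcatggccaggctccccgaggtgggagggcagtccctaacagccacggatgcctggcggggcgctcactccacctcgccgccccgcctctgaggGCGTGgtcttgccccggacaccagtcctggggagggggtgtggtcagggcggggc
The HK2 stretch (chr2:74834920-74835169, intronic in the annotation, before a second start site) held 4 matches, at -194, -149, -107 and -70. The LDHA stretch (chr11:18394313-18394559, before the gene) held 3, at -185, -87 and -73, and the EGLN3 stretch (chr14:33951082-33951324, intronic, before a downstream start site) held 0. The EPAS1 stretch (chr2:46297157-46297406, intronic) held 1, at -117, and the ALDOC stretch (chr17:28576949-28577145, before the gene) held 2, at -240 and -108. That stretch ends at -54, where an annotated exon begins, and the rest of the ALDOC window held 2 further matches, at -45 and -28, so 4 in all. The other 4 windows held none beyond the stretches shown. Members that fell and members that rose both include promoters with the core, and the absence of a match says only that these letters are not in this window.

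The rest of the pathway was described with 8 lists of related genes, 107 of which were tested. In these lists 14 genes passed with shCENPA1 (7 higher, 7 lower) and 35 with shCENPA2 (18 higher, 17 lower), with medians of 0.03 and 0.05. That is 13.1% and 32.7% of these genes, against 7.14% and 18.5% of all genes. The lists were drawn up with earlier results of these data known, so the higher shares are not independent of the data. The shCENPA1 count fell to 7 without shNT library 1 or 2 (3.68% and 3.04% of all genes passed in those fits) and to 8 and 4 without shCENPA1 library 1 and 2 (4.15% and 2.71%). The shCENPA2 count fell to 22 and 18 without shNT library 1 and 2 (9.82% and 9.30%). Of 15 genes for the entry of pyruvate into mitochondria, 0 passed with shCENPA1 by limma and 0 by voom on the recovered reads. With shCENPA1, 5 of them had an unadjusted p under 0.05 by limma, as did 3223 of all 14624 genes. With shCENPA2, 6 passed by limma, which is 40.0% of them against 18.5% of all genes. The median log2 fold change was 0.18 and 0.29, against 0.003 and 0.0122 over all genes. With shCENPA2 the pyruvate dehydrogenase subunits PDHA1 (0.54, adjusted p = 0.00294), DLAT (0.33, adjusted p = 0.0205) and DLD (0.49, adjusted p = 0.0056), the activating phosphatase PDP1 (0.78, adjusted p = 0.00203) and the pyruvate carrier subunit MPC1 (0.55, adjusted p = 0.00381) rose, and the inhibitory kinase PDK4 fell (-0.52, adjusted p = 0.0291). These 6 genes, all that passed, were named after their values were seen. The other 9 did not pass. Among them were the inhibitory kinase PDK2 (0.20 with shCENPA1 and 0.30 with shCENPA2) and the pyruvate carrier subunit MPC2 (-0.11 and -0.10). With shCENPA2, 13 of the 15 values were above 0 and 2 below. The value of PDK4 with shCENPA1 was 0.29. DLAT and PDK4 were lost without either shNT library or shCENPA2 library 1, and DLD without shNT library 1.

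Of the 13 other isozymes and entry genes of glycolysis, 1 passed with shCENPA1 and 6 with shCENPA2 (2 higher, 4 lower). That is 7.69% and 46.15% of them, against 7.14% and 18.5% of all genes. With shCENPA2, 15.38% were higher and 30.77% lower, against 8.05% and 10.5% of all genes. HKDC1, a hexokinase domain protein, was at 0.41 and 0.53 log2 RPKM with shNT, -2.46 and -2.95 with shCENPA1, and -5.86 and -3.63 with shCENPA2. HKDC1 fell by 3.18 with shCENPA1 (log2, adjusted p = 0.0134) and by 5.22 with shCENPA2 (adjusted p = 0.000398), near the bottom of the measured range with shCENPA2, where its size depends on the constant in the log: with 1 added to RPKM the values were -1.05 and -1.18. Of 3 gluconeogenesis genes, 1 passed with each hairpin (33.3%, against 7.14% and 18.5% of all genes). This was PCK2, the mitochondrial phosphoenolpyruvate carboxykinase, which rose with both hairpins (0.79 and 1.19, adjusted p = 0.00277 and 0.000122). Of 8 genes of glycogen and nucleotide sugar metabolism, 1 passed with each hairpin (12.5%, against the same shares of all genes). The glycogen phosphorylase PYGB rose with both (0.47 and 0.63, adjusted p = 0.0388 and 0.00461). Of the 8 pentose phosphate pathway genes, 0 passed with either hairpin by limma or by voom, against 7.14% and 18.5% of all genes by limma. By limma, 2 with shCENPA1 and 1 with shCENPA2 had an unadjusted p under 0.05, as did 3223 and 4718 of all 14624 genes. The values of the 8 genes lay between -0.14 and 0.29.

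Of 17 other HIF regulators, 2 passed with shCENPA1 and 3 with shCENPA2, which is 11.8% and 17.6% of them against 7.14% and 18.5% of all genes, with shCENPA2 a share near the background. CITED2, a HIF target that competes for the HIF coactivators, fell with both (-0.41 and -0.80, adjusted p = 0.0233 and 0.000287), and OS9, an endoplasmic reticulum lectin reported to bind HIF1A, rose with both (0.49 and 0.51, adjusted p = 0.0172 and 0.00608). The 34 other hypoxia-induced genes did not move one way: 3 rose and 4 fell with shCENPA1, and 5 rose and 10 fell with shCENPA2, with medians of -0.04 and -0.08. That is 8.82% higher and 11.8% lower with shCENPA1, against 2.69% and 4.45% of all genes, and 14.7% higher and 29.4% lower with shCENPA2, against 8.05% and 10.5%. The changes there were larger than among the members. IGFBP3, an IGF-binding protein, fell by 1.43 and 3.20 on the log2 scale (adjusted p = 0.00115 and 7.38e-06), the secreted glycoprotein STC1 by 1.45 and 1.35 (adjusted p = 0.0138 and 0.00904), and the membrane protein TMEM45A by 1.14 and 2.18 (adjusted p = 0.0112 and 0.000134). In the same list STC2 (1.29 and 1.56), the mTORC1 inhibitor DDIT4 (0.96 and 1.50) and the haem oxygenase HMOX1 (0.78 and 0.73) rose with both hairpins. With 1 added to RPKM the values of these low genes shrank by more than 1.5 times for STC1 (-0.68 and -0.64), TMEM45A (-0.67 and -1.09), STC2 (0.83 and 1.03) and HMOX1 (0.48 and 0.45), and all stayed called. Among the genes of these lists called with shCENPA1, PYGB, CITED2, TMEM45A and HMOX1 were lost without any one of the shNT or shCENPA1 libraries, OS9 and the carbonic anhydrase CA12 without either shNT library or shCENPA1 library 2, HKDC1 without either shCENPA1 library, and PCK2 and STC1 without shCENPA1 library 2. With shCENPA2, OS9 was lost without shNT library 2 and HMOX1 without either shNT library.

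Of 9 MYC and other activators of glycolytic genes, 2 passed with shCENPA1 and 3 with shCENPA2. That is 22.2% and 33.3% of them, against 7.14% and 18.5% of all genes. MYC, which binds E-boxes of glycolytic genes, was at 4.86 and 4.79 log2 RPKM with shNT, 4.46 and 4.50 with shCENPA1, and 3.71 and 3.58 with shCENPA2. MYC fell by 0.35 with shCENPA1 (log2, adjusted p = 0.0489) and by 1.18 with shCENPA2 (adjusted p = 3.66e-05), and the coactivator PPARGC1B, which drives mitochondrial genes, rose by 1.15 and 1.87 (adjusted p = 0.00178 and 4.81e-05). The shCENPA1 call of MYC was lost without any one of the shNT or shCENPA1 libraries. The 10 proliferation genes all fell with both hairpins, with medians of -1.15 and -1.50. All 10 were called with each, where 4.45% and 10.5% of all genes were called lower. Examples are the cell cycle marker MKI67 (-1.40 and -1.66), the topoisomerase TOP2A (-1.34 and -1.71) and the mitotic kinase CDK1 (-1.16 and -1.66). These moved in the same libraries as the members, and the part of the lower proliferation genes or of MYC in the changes of the members was not tested.

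**Figure D5:**
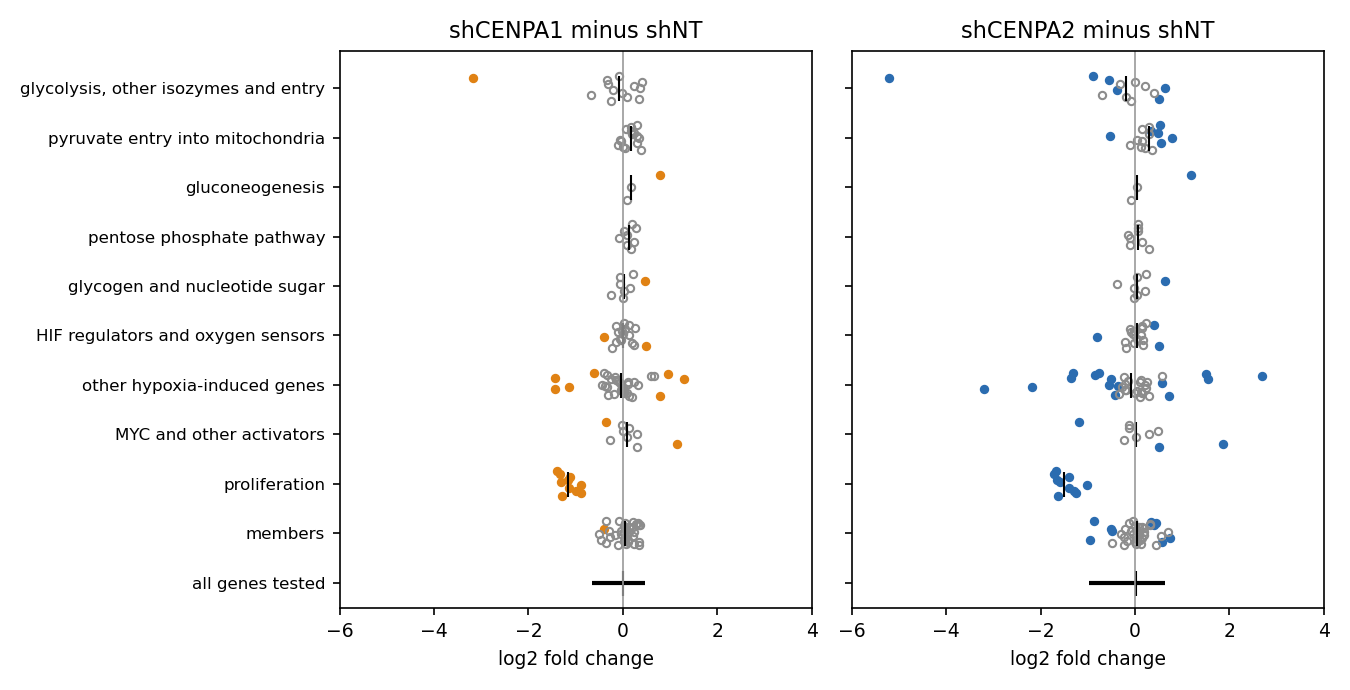
Each row is a gene list and the horizontal axis the log2 fold change with shCENPA1 (left) or shCENPA2 (right) relative to shNT; points are genes, filled for an adjusted p under 0.05, vertical ticks are list medians, and the bar for all genes spans the 5th to 95th percentile. The 39 members lie between -0.95 and 0.75, while other hypoxia-induced genes spread from -3.20 to 2.70 with shCENPA2 and the 10 proliferation genes all lie left of 0.

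The identity of the cells was checked with markers. All 10 prostate luminal epithelium markers were present, KLK3 (prostate-specific antigen) only at -0.48 log2 RPKM in both shNT libraries, and their summed RPKM was 907 to 939 with shNT, 911 to 954 with shCENPA1 and 951 to 954 with shCENPA2. Of 4 fibroblast markers, 2 were present, COL1A1 and DCN. COL1A1 was between -0.07 and 0.37 log2 RPKM. DCN rose from -2.90 and -3.19 with shNT to -1.18 and -1.05 with shCENPA1 and -1.60 and -1.53 with shCENPA2. The summed RPKM of both was 1.09 to 1.20 with shNT and 1.30 to 1.63 over the knockdown libraries. Its part in the changes of the members was not tested. Of 3 basal, 3 endothelial and 3 leukocyte markers, 0 were among the 14828 genes with values, so their level is not known here.

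For several abundant members the counting of reads leaves an uncertainty. GENCODE lists pseudogenes named after 17 of the 39 members, 155 in all, among them 65 for GAPDH, 44 for BNIP3, 13 for PGAM1 and 6 for LDHA, and how reads that match several places were treated is not given in the sources used here. Exons of a gene on the opposite strand overlap those of 19 members, including PFKM, ALDOC and VEGFA, and exons of another gene on the same strand overlap those of 9, including GPI. The libraries were strand-specific, but the strand setting of the counting is not given in the sources used here.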

How the data were processed

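Per the study's methods, the authors trimmed reads with Trim Galore, used STAR for alignment to hg38, HTSeq for counting and edgeR for testing, and deposited log2 RPKM per run; no versions are stated. A prior count of 0.25 reads at the mean library size is part of every deposited log2 value, which shrinks the fold changes of genes with few reads. Since low values move in steps of 1 read, integer reads could be computed back for 14828 genes (largest distance from a whole read 5e-08), with sums of 79172294 to 133074655 per library. Lanes of the same library differed with a chi-square of 1.24 to 1.31 per gene (sampling noise gives about 1), libraries of the same hairpin with 26.5 to 80.1, so the 2 lanes were averaged and counted as 1 replicate.

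The fit (limma 3.58.1, R 4.3.3; lmFit, then eBayes with a variance trend) took genes whose mean log2 RPKM reached -3, 6 libraries of 3 groups in one fit, with Benjamini-Hochberg adjustment over the 14624 genes tested. A call is an adjusted p under 0.05; SE and 95% intervals come from this fit. The fit was tested on simulated data. The 39 members and all lists were chosen with earlier results of these data known. Named genes are members called with both hairpins in the same direction or between the hairpins, and up to 6 genes per list called with both hairpins in the same direction, ranked by the smaller change; library values of the other called members and further list genes were chosen after their values were seen. Alternatives were lanes as replicates or alone, a replicate block, other filters and constants, median centring, quantile normalization, no variance trend, 2 groups only, limma's voom on recovered reads, and each library left out. Leaving out libraries for the list counts, and all alternatives for list genes, were added after seeing the data. Positions are from GENCODE 44 and promoters from RefSeq (GRCh38.p14). The peaks and tissue data of the study were not used here.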

Additional observations from a re-analysis of the deposited data

Results flagged for a closer look

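The members and list genes given here changed by different amounts with the 2 hairpins, by the test of shCENPA2 against shCENPA1 in the same limma fit. EPAS1 was higher with shCENPA2 by 0.70 on the log2 scale (adjusted p = 0.0448). Among the list genes, PDK4 was lower by a difference of -0.82 (adjusted p = 0.0256), with 0.29 and -0.52 against shNT for shCENPA1 and shCENPA2. CA12, a carbonic anhydrase induced by hypoxia, differed by -0.69 (adjusted p = 0.0286), IGFBP3 by -1.77 (adjusted p = 0.00185), MYC by -0.84 (adjusted p = 0.0027) and CDK1 by -0.50 (adjusted p = 0.0364), each having fallen with both hairpins, although the CA12 and MYC calls with shCENPA1 were lost without 3 and 4 single libraries. LOX, which crosslinks collagen, differed by 2.03 (adjusted p = 0.00427; 0.91 with 1 added to RPKM) and FUT11, a fucosyltransferase, by 0.65 (adjusted p = 0.0394). CENPA itself differed by -0.98 (adjusted p = 0.0209). EPAS1, FUT11 and CDK1 were lost without any one of the 6 libraries, CA12 without any shCENPA1 or shCENPA2 library, PDK4 without either shCENPA1 library or shCENPA2 library 1, CENPA without either shCENPA1 library or shCENPA2 library 2, IGFBP3 without either shCENPA1 library, and LOX and MYC without shCENPA1 library 2. PDK4, CA12, LOX and FUT11 were named after their values were seen. With 2 libraries per group no library was tested for standing apart from its group.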

How the results depend on the processing

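In 19 alternative fits no called member changed direction, but counts of calls moved. With lanes as replicates, 15 members passed with shCENPA1, 25 with shCENPA2 and 9 between the hairpins, a fit in which lanes of one library count as separate samples and which called 37.0%, 48.5% and 22.7% of all genes. Over genes, the differences between library 2 and library 1 correlated between groups at -0.064, -0.095 and -0.145. These values show no positive shared shift by library number. They cannot tell whether libraries with the same number were prepared together, which the labels do not say. With the replicate block 0 members passed with shCENPA1, 8 with shCENPA2 and 0 between the hairpins. In that fit 12 and 33 of the 8 lists' genes passed with shCENPA1 and shCENPA2. For shCENPA1 the count was 0 with no trend in the variance, 2 with quantile-normalized libraries, 2 with only the 2 groups compared and 3 with voom. Between the hairpins it was 0 with lane 7 or lane 8 alone, with no trend and with only the 2 groups, and 2 with median-centred libraries and with voom. With a log2 fold change beyond 1 as well, it was 0 in all 3 comparisons. Leaving out each library gave 0 to 2 members with shCENPA1, 4 to 10 with shCENPA2 and 0 between the hairpins (0 to 0 over 6 fits), and 4 to 16 and 18 to 34 genes of the 8 lists. The lowest count with shCENPA2 came without shNT library 1 and the lowest list counts without shCENPA1 library 2 and shNT library 2; the cause was not tested beyond there being fewer samples. Among members not called, the sign changed in 20 of 719 values with shCENPA1, 20 of 567 with shCENPA2 and 38 of 719 between the hairpins.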
